A study of Rattus norvegicus with 30 samples.

Results

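The genes described are those of iron and heme handling, 8 of which were listed by name. Hmox1, Cp, Tfrc, Cybrd1 and Slc11a1 were found by symbol among the 13124 genes of the count table, so 5 of 8 were analysed, and Slc40a1, Fth1 and Ftl1 were not analysed here. The 5 genes are protein coding, and in the rn6 rat genome Hmox1 (ENSRNOG00000014117) lies on chromosome 19, Cp (ENSRNOG00000011913) on chromosome 2, Tfrc (ENSRNOG00000001766) on chromosome 11, Cybrd1 (ENSRNOG00000009620) on chromosome 3 and Slc11a1 (ENSRNOG00000014956) on chromosome 9.

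RNA was sequenced from the right plantaris tendons of 30 Sprague Dawley rats, all of them 3-month-old males. Controls were 3 tendons of rats that had neither surgery nor compound. The other 27 tendons were cut through at midsubstance, sutured at once, and collected 7 days (7D) or 21 days (21D) later. These rats received GSK2894631A, an inhibitor of the enzyme hematopoietic prostaglandin D synthase (HPGDS), by oral gavage in a hydroxypropyl methylcellulose and Tween80 vehicle. Doses of 0, 2 and 6 mg/kg gave 5, 4 and 3 tendons at 7D and 5 tendons each at 21D, where 0 mg/kg is vehicle alone. As the controls received no vehicle and no surgery, the effects of injury, repair, suture and gavage cannot be told apart in comparisons with them.

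Iron enters most cells bound to transferrin, which is taken up by the transferrin receptor, reduced in the endosome and released into the cytosol. Macrophages in injured tissue also take up red cells and hemoglobin, open the heme ring with heme oxygenase and return the iron to the circulation, where ferroxidases load it onto transferrin. Iron that is not exported or used for heme and iron-sulfur proteins is stored in ferritin.

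Total counts per tendon were 12405741 to 49909374 on the genes listed, and levels are given as CPM, counts scaled to a common library total, after correction by TMM, a normalization that allows for a few genes taking a large share of the counts. The 5 genes had 40 to 13844 counts in each tendon, well above a floor of 3 counts, which corresponded to 0.0561 to 0.245 CPM. A gene was called changed at an adjusted p under 0.05 in edgeR's quasi-likelihood test, adjusted by Benjamini-Hochberg over 12558 genes. Levels were not divided by transcript length, so values are compared between tendons and not between genes. The gene called the most abundant of a marker list is that with the most counts, whatever its length.

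Markers of other cells differed between the groups, although the study's methods state that the tendons were cut so as to leave out muscle and bone. A list of skeletal muscle genes, 24 of 29 of which were in the table, took up between 19.2 and 26.9% of each control tendon's counts. At 7D the vehicle tendons had 0.173 to 1.27%, those at 2 mg/kg had 0.00896 to 0.011% and those at 6 mg/kg had 0.00941 to 0.0118%. At 21D the vehicle tendons had 0.0667 to 7.88%, those at 2 mg/kg had 1.26 to 3.26% and those at 6 mg/kg had 0.34 to 9.7%. No control tendon overlapped any repaired tendon in this share, and Acta1, the skeletal muscle actin gene, was the most abundant of the list at 35600 to 72800 CPM in controls and 1.6 to 19400 CPM after repair. Among the controls, replicate 4 stood apart. It had the highest muscle share (26.9%), the lowest sum of the tendon fibroblast list (10900 CPM against 23600 and 41800) and the lowest sum of the macrophage list (489 CPM against 1560 and 2100). Tendon fibroblast genes were present in every group, with Col1a1 at 7350 to 30100 CPM in controls and 19900 to 51600 CPM after repair. In whole tendons, fewer cells of a type and less RNA per cell cannot be told apart.

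Repair was followed by higher Hmox1, Slc11a1 and Cp, lower Tfrc, and no called change of Cybrd1. Each of the 3 higher genes passed the test at both times and every dose, except Cp at 21D 2 mg/kg. At 7D, 3 of the 5 genes were higher and 1 was lower at each dose, where the whole table had 35.8% of genes higher and 35.6% lower at 0 mg/kg, 35.8% higher and 34% lower at 2 mg/kg, and 34.1% higher and 33.8% lower at 6 mg/kg. At 21D, 3 genes were higher and 1 lower at 0 and 6 mg/kg, and 2 were higher and 1 lower at 2 mg/kg. The whole table had 32.2% higher and 33.7% lower at 21D 0 mg/kg, 33.8% higher and 35.3% lower at 2 mg/kg, and 30.8% higher and 33.3% lower at 6 mg/kg. With about 2 in 3 genes of the table called in these comparisons, passing the test did not set the 5 genes apart, and their sizes and patterns across tendons are what follows. All 6 comparisons share the same 3 control tendons, so their values are given side by side and are not independent.

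**Figure D1:**
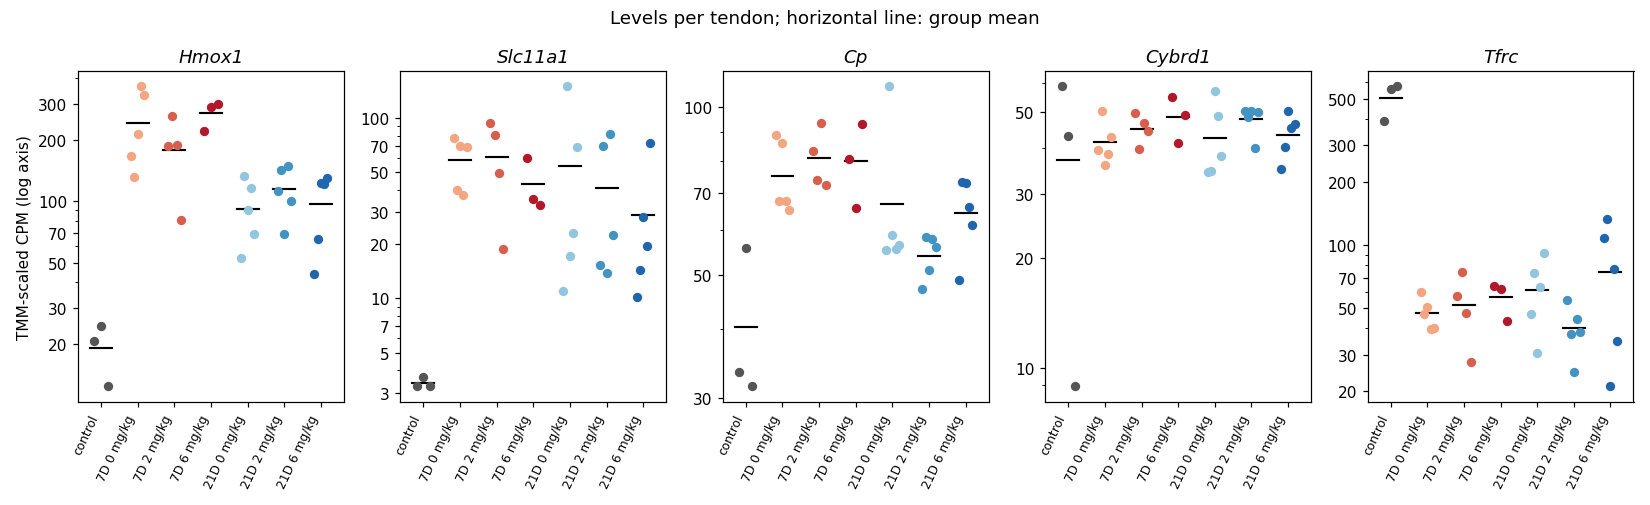
TMM-scaled CPM (log axis) of Hmox1, Slc11a1, Cp, Cybrd1 and Tfrc in each of the 30 tendons by group, with the group mean as a horizontal line. Every repaired tendon lies above every control for Hmox1 and Slc11a1 and below every control for Tfrc, while the groups overlap for Cybrd1 and, at 21D, for Cp.

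Hmox1 encodes the inducible heme oxygenase, which cleaves heme to biliverdin, carbon monoxide and iron. It was at 20.6, 24.4 and 12.4 CPM in the control tendons. At 7D it was at 167, 131, 214, 366 and 331 CPM in 0 mg/kg tendons, at 186, 260, 188 and 80.5 CPM in 2 mg/kg tendons and at 221, 289 and 297 CPM in 6 mg/kg tendons. The lowest 7D tendon, 2 mg/kg replicate 5, was thus still above the highest control. At 21D the 0 mg/kg tendons had 52.4, 132, 90.5, 116 and 68.7 CPM, the 2 mg/kg tendons 112, 142, 69.4, 148 and 100 CPM, and the 6 mg/kg tendons 44.1, 65.2, 123, 121 and 129 CPM. No repaired tendon overlapped the controls at either time.

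Against controls, the log2 fold change of Hmox1 at 7D was 3.65 ± 0.465 (SE), 3.22 ± 0.461 and 3.81 ± 0.486 at 0, 2 and 6 mg/kg, or 12.6-, 9.31- and 14-fold (edgeR, adjusted p = 1.91e-07, 1.28e-06 and 3.15e-07). At 21D it was 2.26 ± 0.431, 2.57 ± 0.438 and 2.33 ± 0.432, or 4.79-, 5.95- and 5.02-fold (adjusted p = 7.18e-05, 1.46e-05 and 5.51e-05). The fold over controls was lower at 21D than at 7D at each dose.

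Slc11a1, also known as Nramp1, is a metal transporter of the phagosome membrane of macrophages and neutrophils, which moves iron and manganese out of the phagosome. It was near 3 CPM in all controls, at 3.25, 3.65 and 3.26. At 7D it was at 77.4, 40, 70.5, 37.6 and 69.2 CPM at 0 mg/kg, at 93.7, 80.8, 49.6 and 18.7 CPM at 2 mg/kg and at 60.2, 35.7 and 33.2 CPM at 6 mg/kg. The controls were close together, whereas the repaired tendons spread widely, and the lowest 7D tendon was again 2 mg/kg replicate 5. At 21D the values were 11, 151, 17.2, 23.1 and 68.9 CPM at 0 mg/kg, 15.3, 70.5, 13.9, 81.9 and 22.4 CPM at 2 mg/kg, and 10.2, 14.3, 28.4, 19.5 and 72.7 CPM at 6 mg/kg. In each 21D group 1 or 2 tendons were far above the rest, namely replicates 2 and 5 without inhibitor, replicates 2 and 4 at 2 mg/kg, and replicate 5 at 6 mg/kg. All repaired tendons exceeded all controls.

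The log2 fold change of Slc11a1 against controls was 4.12 ± 0.909, 4.16 ± 0.924 and 3.67 ± 0.927 at 7D at 0, 2 and 6 mg/kg (edgeR, adjusted p = 0.000281, 0.000324 and 0.00119). At 21D it was 3.99 ± 0.904, 3.59 ± 0.887 and 3.09 ± 0.868 (adjusted p = 0.000458, 0.000933 and 0.00327). When 1 tendon was left out, these 21D values ranged from 3.14 to 4.25, from 3.17 to 3.81 and from 2.41 to 3.31, and all were still called. The 95% interval at 7D 0 mg/kg ran from 2.25 to 5.99, so that the size of the increase is known less well than that of Hmox1, whose interval there ran from 2.7 to 4.61.

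Cp encodes ceruloplasmin, a copper-binding ferroxidase of plasma that also exists as a form anchored to the cell surface. Control tendons had 33.4, 55.7 and 31.5 CPM, replicate 3 being the highest. The 7D tendons had 88.9, 67.7, 86, 67.7 and 65.4 CPM at 0 mg/kg, 83.2, 74, 93.6 and 72.4 CPM at 2 mg/kg, and 80.7, 65.7 and 93.1 CPM at 6 mg/kg. All 12 lay above the highest control. At 21D the 0 mg/kg tendons had 55.4, 109, 58.8, 55.5 and 56.4 CPM, the 2 mg/kg tendons 47.1, 58.4, 50.9, 57.8 and 56 CPM, and the 6 mg/kg tendons 48.9, 73.2, 72.9, 66.1 and 61.3 CPM. All 3 groups at 21D overlapped control replicate 3, and 21D 0 mg/kg replicate 2 was far above the other 4 tendons of its group.

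The increase of Cp was about 2-fold at 7D, with log2 fold changes of 0.9 ± 0.212, 1.01 ± 0.22 and 0.99 ± 0.231 at 0, 2 and 6 mg/kg (edgeR, adjusted p = 0.000532, 0.000275 and 0.000563). At 21D it was 0.73 ± 0.21 at 0 mg/kg (adjusted p = 0.00365), 0.43 ± 0.208 at 2 mg/kg (adjusted p = 0.0716, not past the threshold) and 0.68 ± 0.21 at 6 mg/kg (adjusted p = 0.00665). The 21D calls depended on the fit and on single control tendons. With only the groups compared, Cp at 0 mg/kg was not called (0.755, edgeR, adjusted p = 0.0658), and with no filter on low counts Cp at 2 mg/kg was (0.47, adjusted p = 0.0454). Without control replicate 4 the adjusted p of Cp was 0.0511 at 0 mg/kg and 0.0767 at 6 mg/kg, without control replicate 2 it was 0.0645 at 6 mg/kg, and without control replicate 3 the change at 2 mg/kg was called, at 0.77 (adjusted p = 0.00334).

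Tfrc encodes the transferrin receptor, through which cells take up transferrin-bound iron. It had by far its highest levels in the uninjured tendons, at 391, 555 and 577 CPM. At 7D it was at 59.8, 47, 50.7, 39.6 and 40.2 CPM at 0 mg/kg, at 56.9, 74.8, 47.5 and 27.5 CPM at 2 mg/kg, and at 63.9, 61.9 and 43.6 CPM at 6 mg/kg. These 12 tendons lay between 27.5 and 74.8 CPM, far below the lowest control. At 21D the values were 46.9, 73.5, 30.4, 63 and 92 CPM at 0 mg/kg, 54.7, 37.7, 24.7, 44.3 and 38.6 CPM at 2 mg/kg, and 108, 133, 21.1, 76.8 and 34.8 CPM at 6 mg/kg. The 21D 6 mg/kg group held both the highest and the lowest of all 27 repaired tendons.

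The log2 fold change of Tfrc against controls was -3.42 ± 0.417, -3.29 ± 0.451 and -3.17 ± 0.502 at 7D at 0, 2 and 6 mg/kg (edgeR, adjusted p = 1.01e-07, 6.73e-07 and 5.78e-06), so that controls had 10.7, 9.81 and 9 times the level of repaired tendons. At 21D it was -3.05 ± 0.413, -3.67 ± 0.42 and -2.77 ± 0.41 (adjusted p = 8.57e-07, 5.64e-08 and 3.17e-06), and controls had 8.3, 12.7 and 6.81 times the level. The fall of Tfrc went along with that of the muscle list, of which 24 of 24 tested genes were lower at 7D at each dose, and 20, 23 and 17 were lower at 21D at 0, 2 and 6 mg/kg. In the 21D 6 mg/kg group, replicates 1 and 2, with muscle shares of 7.67 and 9.7%, had 108 and 133 CPM of Tfrc, and replicates 3 and 5, with shares of 0.34 and 0.436%, had 21.1 and 34.8 CPM. The 21D 0 mg/kg tendons did not all follow that order. Replicate 2, with the lowest share at 0.0667%, had 73.5 CPM of Tfrc, and replicates 1 and 3, with shares of 5.54 and 2.25%, had 46.9 and 30.4 CPM. Replicate 5, with the highest share of that group at 7.88%, had its highest Tfrc, 92 CPM, and replicate 4, at 2.62%, had 63 CPM. Across the 15 tendons at 21D the correlation of Tfrc with the summed muscle list, both on the log2 scale, was Pearson r 0.48 and Spearman rho 0.73, and across the 12 tendons at 7D it was -0.19 and -0.37. At 7D the 2 and 6 mg/kg tendons had at most 0.0118% of muscle counts, and their Tfrc, 27.5 to 74.8 CPM, spanned that of the 0 mg/kg tendons, 39.6 to 59.8 CPM, whose shares were 0.173 to 1.27%. With the muscle share as a covariate the log2 fold change of Tfrc was -1.84 at 7D 2 mg/kg (adjusted p = 0.143) and -1.74 at 7D 6 mg/kg (adjusted p = 0.162) in edgeR. The share separates the controls from all repaired tendons, so that its part and that of the injury cannot be told apart.

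The same covariate ended the calls of the other genes at 7D 2 and 6 mg/kg, where over all 12558 genes it gave 1357 and 1423 calls in place of 8757 and 8529. There Hmox1 was at 1.44 (edgeR, adjusted p = 0.25) and 2.05 (adjusted p = 0.0988), Slc11a1 at 0.21 (adjusted p = 0.93) and -0.22 (adjusted p = 0.932), and Cp at -0.08 (adjusted p = 0.904) and -0.09 (adjusted p = 0.902). At 7D 0 mg/kg and at 21D, Hmox1 and Tfrc were still called at each dose and Cp at none, and Slc11a1 was called except at 21D 6 mg/kg, at 1.69 (adjusted p = 0.061). The sizes of these calls depended on the setting. Over the 9 alternatives other than leaving out a tendon, Slc11a1 at 7D 0 mg/kg ranged from 2.13 to 4.7, Hmox1 from 2.78 to 4.21 and Tfrc from -3.47 to -2.69. At 21D 0 mg/kg the ranges were 2.45 to 4.54, 1.64 to 2.78 and -3.13 to -2.49.

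Of the 5 genes, 3 (Cp, Tfrc and Cybrd1) had a promoter in the RefSeq set for the GRCr8 rat assembly, in windows from 250 bases before the transcript start. These were searched on both strands for ACGTG (the core of the hypoxia response element), CACGTG (the E-box, which contains the former), TGANTCA (the AP-1 motif) and TGACNNNGC (the antioxidant response element). The only match was ACGTG in Tfrc, 31 to 27 bases before the start, shown because Tfrc was the only one of the 5 genes that fell and its 30-base window, chr11:81690333-81690362 on the minus strand of GRCr8, is short enough to read whole, with the match in capitals.
Tfrc: cctcggtaggtgtACGTGcggcaggaagtg
Of all 33469 promoters of that length, 16.6% held ACGTG, 5.59% CACGTG, 6.34% TGANTCA and 10.1% TGACNNNGC. The match is a description of the letters, and nothing on binding was measured.

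Cybrd1 encodes duodenal cytochrome b, a membrane reductase that converts ferric to ferrous iron. Its levels were 59.1, 43.1 and 8.9 CPM in control tendons, the lowest being replicate 4. The 7D tendons had 39.4, 50.4, 35.8, 38.6 and 42.8 CPM at 0 mg/kg, 49.7, 39.6, 46.9 and 44.5 CPM at 2 mg/kg, and 55, 41.3 and 49.2 CPM at 6 mg/kg. The 21D tendons had 34.3, 34.5, 57.2, 49 and 38 CPM at 0 mg/kg, 50.6, 48.5, 50.5, 39.9 and 50.1 CPM at 2 mg/kg, and 35, 40.2, 50.3, 45.3 and 46.5 CPM at 6 mg/kg. All 27 repaired tendons thus lay between 34.3 and 57.2 CPM and none was above the highest control.

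No change of Cybrd1 against controls was called. The log2 fold change was 0.15, 0.28 and 0.38 at 7D and 0.2, 0.36 and 0.22 at 21D at 0, 2 and 6 mg/kg (edgeR, adjusted p = 0.657, 0.436, 0.316, 0.577, 0.288 and 0.53). At 7D 0 mg/kg the 95% interval was -0.46 to 0.77, which leaves room for a change of either sign. Control replicate 4 set the sign, and without it all 6 values were below 0, from -0.36 at 7D 0 mg/kg (adjusted p = 0.0732) to -0.11 at 7D 6 mg/kg (adjusted p = 0.634). Without control replicate 2 it was instead called higher at 7D 6 mg/kg (0.84, edgeR, adjusted p = 0.0367) and 21D 2 mg/kg (0.79, adjusted p = 0.0334), and with library size only at 7D 2 mg/kg (0.76, adjusted p = 0.0463), 7D 6 mg/kg (0.90, adjusted p = 0.0277) and 21D 2 mg/kg (0.82, adjusted p = 0.0284).

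**Figure D2:**
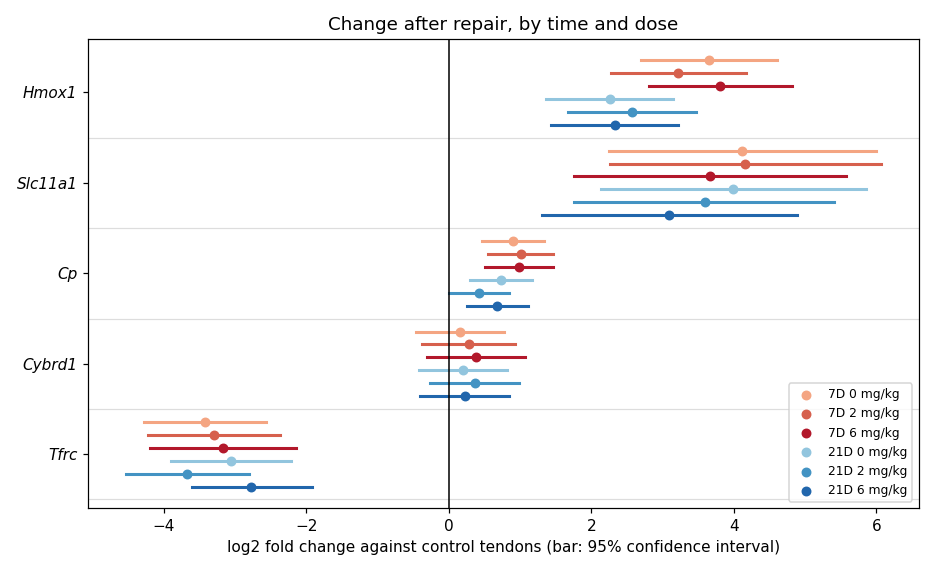
Log2 fold change against the 3 control tendons for the 5 genes at each time and dose. Bars give the 95% confidence interval derived from the F statistic of the edgeR test. Hmox1 and Slc11a1 lie right of 0 and Tfrc left of 0 in all 6 comparisons, Cp is close to 1 at 7D and lower at 21D, and all intervals of Cybrd1 contain 0.

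Between the times, Hmox1 fell at 0 and 6 mg/kg and Cp at 2 mg/kg, which makes 1 of the 5 genes lower and none higher at each dose. The whole table had 2.88% of genes higher and 2.47% lower at 21D than at 7D at 0 mg/kg, 7.09% higher and 5.98% lower at 2 mg/kg, and 8.54% higher and 4.55% lower at 6 mg/kg. Hmox1 decreased by 1.4 on the log2 scale at 0 mg/kg (SE 0.342, edgeR, adjusted p = 0.0202), from a mean of 242 to 91.9 CPM, and 21D replicate 2, at 132 CPM, overlapped the lowest 7D tendon. It decreased by 1.48 at 6 mg/kg (SE 0.379, adjusted p = 0.0108), from 269 to 96.4 CPM, with no overlap of the tendons. With the muscle share as a covariate neither was called, at -1.13 for 0 mg/kg (edgeR, adjusted p = 0.0664) and -0.293 for 6 mg/kg (adjusted p = 0.846). At 2 mg/kg the change was -0.64 (SE 0.354, adjusted p = 0.237) and the groups overlapped. Cp decreased by 0.58 at 2 mg/kg (SE 0.187, adjusted p = 0.04), from 80.8 to 54 CPM with no overlap, and this call did not hold when any 1 of the 9 tendons was left out, with values of -0.629 to -0.502 and adjusted p from 0.0521 to 0.104, and with the muscle covariate the value was 0.166 (adjusted p = 0.707). At the other doses the values of Cp were -0.17 without inhibitor and -0.31 at 6 mg/kg (adjusted p = 0.616 and 0.346).

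Tfrc, Cybrd1 and Slc11a1 passed no test between the times. Tfrc was at 0.37, -0.37 and 0.4 on the log2 scale at 0, 2 and 6 mg/kg (edgeR, adjusted p = 0.581, 0.555 and 0.586). For Slc11a1 the differences were -0.12, -0.57 and -0.57 (adjusted p = 0.933, 0.609 and 0.658), with intervals as wide as -2.04 to 0.89 at 6 mg/kg. The call of Hmox1 at 0 mg/kg was lost without 7D replicate 4 or 5 or without 21D replicate 1 or 5, with adjusted p of at most 0.0632. The log2 changes in these edgeR fits were -1.2, -1.26, -1.25 and -1.31, against -1.4 with all tendons.

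The dose comparisons bear on HPGDS inhibition during repair, although the muscle share also differed between the doses at 7D. None of the 5 was called across the 3 doses at 7D, where 2.05% of all genes were, nor between 2 and 0 mg/kg (2.36%), 6 and 0 mg/kg (0.39%) or 6 and 2 mg/kg (0%). None was called across doses at 21D (0%), between 2 and 0 mg/kg (0%), 6 and 0 mg/kg (0%) or 6 and 2 mg/kg (0%), and none had a dose effect that differed between the times, where 0.39% of genes did. In the comparisons with no called gene, edgeR gave 997 genes at an unadjusted p under 0.05 for 7D 6 against 2 mg/kg, and 1366, 1078, 810 and 1751 for 21D across doses, 2 against 0, 6 against 0 and 6 against 2 mg/kg. DESeq2 called 69, 138, 19, 1 and 254 genes there and limma-trend 0 in each, and neither called any of the 5 genes.

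The intervals of the fit without covariates give the range of dose changes that these tendons leave possible, apart from the muscle share, which differed between the doses at 7D. At 7D, Hmox1 differed by 0.15 between 6 and 0 mg/kg (log2, 95% interval -0.64 to 0.95) and by -0.44 between 2 and 0 mg/kg (-1.17 to 0.3). Cp was the most tightly measured of the higher genes, at 0.09 (-0.33 to 0.51) and 0.1 (-0.28 to 0.49). Slc11a1 was the least, at -0.45 (-1.95 to 1.05) and 0.05 (-1.31 to 1.4). Tfrc was at 0.25 (-0.6 to 1.1) and 0.13 (-0.66 to 0.91), and Cybrd1 at 0.23 (-0.38 to 0.84) and 0.13 (-0.44 to 0.69). With the muscle share as a covariate some values lay outside these intervals, with Slc11a1 at -2.35 between 6 and 0 mg/kg and -1.92 between 2 and 0 mg/kg, and Hmox1 at -1.34 between 2 and 0 mg/kg and -0.727 between 6 and 0 mg/kg. Cp was at -0.449 and -0.444, and none of the 5 genes was called.

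At 21D the difference between 6 and 0 mg/kg was 0.07 for Hmox1 (95% interval -0.62 to 0.76), -0.05 for Cp (-0.42 to 0.31), 0.29 for Tfrc (-0.45 to 1.02), 0.03 for Cybrd1 (-0.5 to 0.56) and -0.9 for Slc11a1 (-2.19 to 0.4). That of Slc11a1 rested on single tendons, with -1.58 to -0.0481 when 1 was left out. The only unadjusted p under 0.05 for any of the 5 genes in a dose comparison was that of Tfrc between 6 and 2 mg/kg at 21D, at 0.9 (0.16 to 1.64, edgeR, unadjusted p = 0.0197, adjusted p = 0.28). There the muscle shares of the groups were 0.34 to 9.7% at 6 mg/kg and 1.26 to 3.26% at 2 mg/kg. Over the 9 alternatives other than leaving out a tendon, among them the share as a covariate, that difference was 0.64 to 0.923 and was never called.

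The genes also varied between tendons of a group, and for some of them this variation went along with marker lists of cell types. After subtracting group means on the log2 scale, Hmox1 correlated with the summed macrophage list with Pearson r 0.79 over 30 tendons, and at 21D the levels themselves gave r 0.89 and Spearman rho 0.95 over 15 tendons. At 7D they gave r 0.53 and rho 0.42 over 12 tendons, where the neutrophil list gave r 0.6 and rho 0.33. For Slc11a1 the values with the macrophage list were 0.69 over 30 tendons, 0.84 and 0.9 at 21D, and 0.49 and 0.41 at 7D. Cybrd1 instead followed the tendon fibroblast list, with r 0.81 over 30 tendons and 0.86 and 0.88 at 21D, but -0.01 and -0.03 over the 12 tendons at 7D. Cp correlated with the macrophage list at 0.52 and Tfrc at -0.05 over 30 tendons, and Hmox1 with Slc11a1 at 0.57. With the skeletal muscle list the deviations over 30 tendons gave r -0.5 for Hmox1, -0.61 for Slc11a1, -0.57 for Cp, 0.43 for Tfrc and -0.07 for Cybrd1, and Tfrc gave -0.4 with the tendon fibroblast list. These are descriptions of tendons that share groups, and both quantities come from the same libraries.

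**Figure D3:**
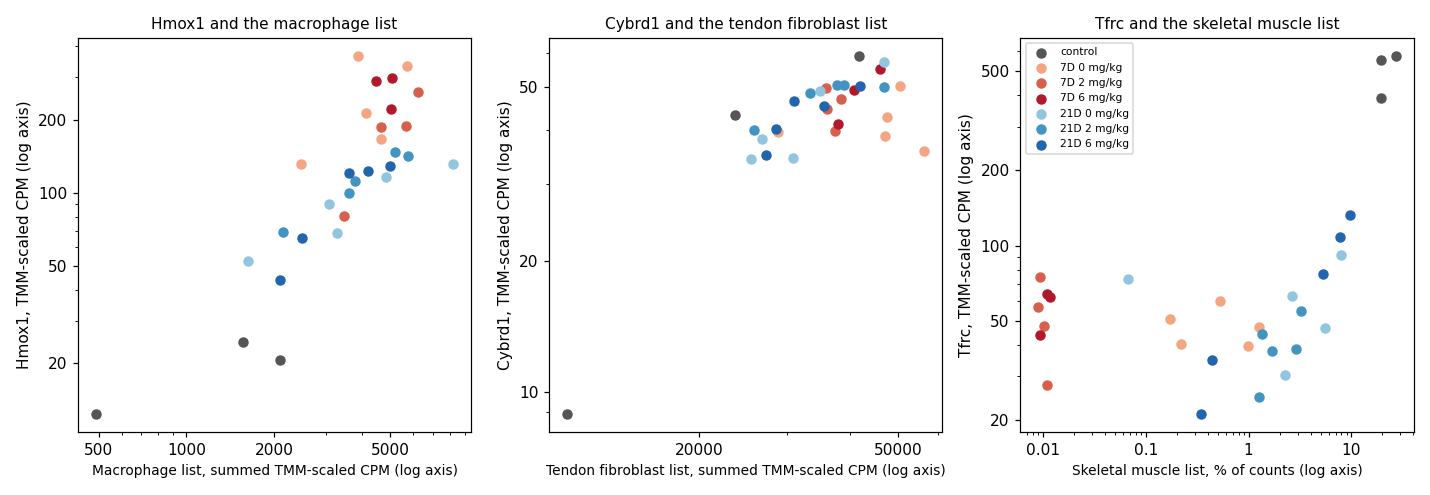
Each point is a tendon, coloured by group, with both axes logarithmic: Hmox1 CPM against the summed CPM of the macrophage list, Cybrd1 CPM against that of the tendon fibroblast list, and Tfrc CPM against the percentage of counts on the skeletal muscle list. Control replicate 4 is the point at the lower left of the first and second panels, and the 3 controls stand alone at the upper right of the third.

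The macrophage list (12 of 14 genes in the table) summed to 489 to 2100 CPM in controls. It summed to 2470 to 5720, 3480 to 6210 and 4470 to 5070 CPM at 7D and to 1630 to 8220, 2150 to 5750 and 2090 to 5000 CPM at 21D, at 0, 2 and 6 mg/kg. Lyz2, the lysozyme of myeloid cells, was its most abundant gene, at 110 to 649 CPM in controls and 833 to 5840 CPM after repair, and 1 of its genes was at 0 in at least 1 control. Of its 12 genes, 9, 10 and 10 were higher at 7D and 7, 8 and 5 at 21D, and none was lower. Per 1000 CPM of the macrophage list, Hmox1 was at 9.78 to 25.4 in controls, at 36.1 to 94.7, 23.1 to 41.9 and 43.8 to 64.7 at 7D, and at 16 to 32.2, 24.7 to 32.4 and 21 to 33.3 at 21D. This ratio lay above all controls in 7D 0 and 6 mg/kg tendons, while the 7D 2 mg/kg tendons and all 21D groups overlapped control replicate 4 alone, at 25.4, since the other controls were at 9.78 and 15.6 and the lowest repaired tendon at 16. The ratio of Slc11a1 was 1.55 to 6.68 in controls, 9.73 to 17.1, 5.39 to 20.2 and 6.56 to 12 at 7D, and 4.79 to 21, 4.07 to 15.8 and 4.85 to 14.6 at 21D, and all groups but 7D 0 mg/kg overlapped control replicate 4, at 6.68, and none the other controls, at 1.55 and 2.33. The part of macrophage number in either gene was not tested.

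Red cells and neutrophils were also looked for. The erythroid list (7 of 10 genes in the table, with Hbb the most abundant) summed to 1290 to 10500 CPM in controls. It summed to 921 to 14800, 5620 to 18700 and 11900 to 21200 CPM at 7D, at 0, 2 and 6 mg/kg. At 21D the sums were 4870 to 15200, 3470 to 11100 and 3520 to 15400 CPM. All tendons at 7D 6 mg/kg thus lay above the highest control, while the other groups overlapped the controls. The 7 erythroid genes had median log2 fold changes of 1, 1.4 and 1.52 at 7D and 1.14, 0.29 and 0.69 at 21D. Of them, 1, 1 and 2 were called higher at 7D and 1, 0 and 1 at 21D, and none was lower. Hmox1 correlated with the erythroid list at -0.13 over 30 tendons after subtracting group means. The neutrophil list (5 of 8 genes, with S100a9 the most abundant) summed to 4.57 to 15.7 CPM in controls, 10.8 to 108 CPM at 7D and 6.71 to 34.1 CPM at 21D. Of its 5 genes, 4, 3 and 5 were higher at 7D at 0, 2 and 6 mg/kg, and none was called at 21D.

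Among the 9529 genes that averaged 10 CPM or more, those whose deviations from the group means were most like each gene over the 30 tendons were Lilrb3a (Pearson r 0.89) and Unc93b1 (0.87) for Hmox1, and Cyfip2 (0.97) and Prkcd (0.97) for Slc11a1. For Cp they were Slfn2 (0.77) and Tap1 (0.75), for Tfrc Psmd11 (0.87) and Relt (0.87), and for Cybrd1 Aff3 (0.94) and AABR07035437.1 (0.94). Control replicate 4, at 8.9 CPM of Cybrd1, lay far below the other controls and the repaired tendons, at 34.3 to 57.2 CPM. It can therefore weigh heavily in the r values of Cybrd1 over 30 tendons, which were not computed without it. Unc93b1 carries Toll-like receptors to endosomes, Prkcd is a protein kinase C, Tap1 a subunit of the peptide transporter of antigen presentation, and Psmd11 a subunit of the proteasome. These values are descriptions over tendons of 7 groups.

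The other genes of the pathways were taken from a list of 54, of which 48 were in the table and 47 had enough counts to test. Against controls, 15, 14 and 17 of the 47 were higher and 14, 15 and 15 lower at 7D at 0, 2 and 6 mg/kg, and 8, 9 and 8 were higher and 18, 17 and 18 lower at 21D. Of all genes tested, 30.8 to 35.8% were higher and 33.3 to 35.6% lower in these comparisons, which is the background for the groups that follow. Their median log2 fold change was 0.02, 0.11 and 0.08 at 7D and -0.13, -0.24 and -0.15 at 21D, where that of all genes was 0.05, 0.05 and 0.04, and 0.03, 0.01 and 0.01. The split depended on the scaling and on the muscle share. With library size only it was 28 higher and 7 lower, 26 and 7, and 27 and 7 at 7D, and 21 and 6, 20 and 8, and 19 and 8 at 21D. With the muscle share as a covariate it was 10 and 12, 4 and 2, and 4 and 1 at 7D, and 5 and 12, 6 and 17, and 5 and 16 at 21D. In the fit without covariates the called genes of iron uptake were all higher and those of heme synthesis all lower, while the other groups held called genes of both directions or few calls, and no group was tested against another.

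**Figure D4:**
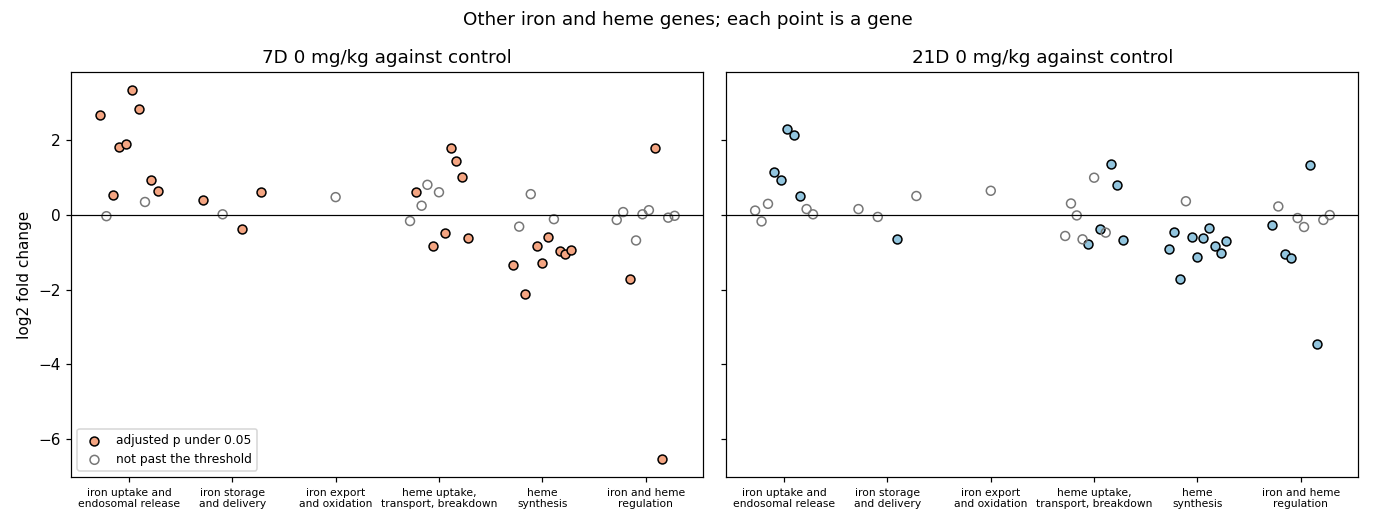
Log2 fold change of the 47 other iron and heme genes at 7D 0 mg/kg and 21D 0 mg/kg against control, each point a gene, grouped by role, with filled points for an adjusted p under 0.05. Called genes of iron uptake lie above 0 (8 of 10 and 5 of 10 genes) and called genes of heme synthesis below 0 (8 of 11 and 10 of 11). The lowest point is Hjv.

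Of 10 tested genes of iron uptake and endosomal release, 8 were higher at 7D at each dose and 5, 6 and 5 at 21D, and none was lower in this fit. Steap1 and Steap2, metalloreductases of the family that reduces iron and copper, rose the most. Steap1 went from 3.73 ± 3.38 CPM (SD, n = 3) in controls to 39.2 ± 9.64 (n = 5), 57 ± 27.5 (n = 4) and 41.2 ± 12.6 CPM (n = 3) at 7D, and was at 19.2 ± 2.49, 20.2 ± 2.17 and 23 ± 5.4 CPM (n = 5 each) at 21D. Its log2 fold change was 3.34 ± 0.414 (SE) at 7D 0 mg/kg and 2.31 ± 0.395 at 21D 0 mg/kg (edgeR, adjusted p = 1.32e-07 and 1.98e-05), and that of Steap2 was 2.85 ± 0.414 and 2.15 ± 0.399 (adjusted p = 1.39e-06 and 5.41e-05). Slc39a8, a zinc and iron transporter also called ZIP8, was at 1.9 ± 0.295 and 0.93 ± 0.283 (adjusted p = 3.72e-06 and 0.00562). The control tendons had few counts of Steap1, down to 13 in 1 tendon.

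Lcn2, Tf and Slc11a2 were picked from the uptake genes after their values were seen. Lcn2, the siderophore-binding lipocalin of neutrophils and injured epithelia, was at 3.7 ± 2.23 CPM in controls, 23.5 ± 8.14 at 7D 0 mg/kg and 3.95 ± 1.43 at 21D 0 mg/kg. Its difference between the times was -2.57, -3.15 and -2.97 on the log2 scale at 0, 2 and 6 mg/kg (edgeR, adjusted p = 0.00334, 0.000269 and 0.000655). Tf, which encodes transferrin itself, went from 178 ± 59.1 CPM in controls to 278 ± 86.4, 302 ± 77.9 and 360 ± 86.8 at 7D (log2 fold change 0.64, 0.77 and 1.02, adjusted p = 0.0286, 0.0139 and 0.00285), in the opposite direction to its receptor Tfrc, and was at 180 ± 52.1 CPM at 21D 0 mg/kg. Slc11a2, the ferrous iron transporter DMT1 and a relative of Slc11a1, was at 44.9 ± 10.4 CPM in controls and 44 ± 5.35 CPM at 7D 0 mg/kg (-0.03, adjusted p = 0.844).

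The genes of heme synthesis gave the other large group. Of 11, 8 were lower at 7D at each dose and 10 at 21D, and none was higher. Urod, uroporphyrinogen decarboxylase, fell from 114 ± 43.4 CPM in controls to 55.2 ± 3.49 CPM at 7D 0 mg/kg and 56.2 ± 6.61 CPM at 21D 0 mg/kg (log2 fold change -1.05 ± 0.143 and -1.02 ± 0.143, edgeR, adjusted p = 5.6e-07 and 1.37e-06). Abcb10, a transporter of the inner mitochondrial membrane, fell from 46 ± 4.37 to 18 ± 1.13 and 24.4 ± 2.75 CPM (-1.35 ± 0.127 and -0.91 ± 0.127, adjusted p = 2.02e-09 and 1.31e-06). Slc25a38, the mitochondrial glycine carrier of the first step, was at -0.96 ± 0.111 and -0.82 ± 0.111 (adjusted p = 4.95e-08 and 8.83e-07). Chosen after its values were seen, Alas1, the rate-limiting synthase of non-erythroid cells, fell from 156 ± 41.4 to 36.5 ± 4.8 CPM at 7D 0 mg/kg (-2.1, adjusted p = 1.78e-06), while its erythroid counterpart Alas2, chosen likewise, varied from 17.4 to 223 CPM among the controls and was not called.

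These falls went along with that of the skeletal muscle list. With the muscle share as a covariate, 6 heme synthesis genes were lower at 7D 0 mg/kg, 0 at 2 and 6 mg/kg, and 7, 8 and 8 at 21D. In that fit 6158, 1357 and 1423 of the 12558 genes were called at 7D, and 6454, 7151 and 6537 at 21D. Scaled by library size alone, which moved the median of all genes to 0.64, 0.61 and 0.63 at 7D and to 0.59, 0.54 and 0.51 at 21D, 5, 6 and 5 of them were lower and 1 was higher at 7D, and 5, 6 and 6 were lower at 21D. Without control replicate 4 there were 8, 7 and 7 lower at 7D and 8 lower at each dose at 21D. For the uptake genes, 6, 2 and 2 were higher at 7D with the covariate, 10 at each dose with library size alone, and 6, 6 and 8 without control replicate 4, where 1 was lower at 6 mg/kg. At 21D, 8, 6 and 8 were higher with library size alone, 2, 3 and 2 were higher with the covariate, with 1 lower at 2 and at 6 mg/kg, and 3, 3 and 2 were higher without control replicate 4, with 1 lower at each dose. These alternatives for the pathway groups were chosen after the data were seen.

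Genes of heme uptake, transport and breakdown were called in both directions. Of 11, 4, 3 and 5 were higher and 3 lower at 7D, and 2 were higher and 3 lower at 21D at each dose. Of all genes tested, 34.1 to 35.8% were higher and 33.8 to 35.6% lower at 7D. At 21D the shares were 30.8 to 33.8% and 33.3 to 35.3%, so the split did not set this group apart. With library size only 7, 6 and 6 were higher and 0 lower at 7D, and 6, 6 and 4 were higher and 0 lower at 21D. With the muscle covariate 3, 1 and 1 were higher and 2, 0 and 0 lower at 7D, and 2 were higher and 2 lower at each dose at 21D. Lrp1, the receptor that clears the complex of heme and hemopexin among many other ligands, rose from 540 to 1490, 1640 and 1410 CPM on average at 7D (log2 fold change 1.46 ± 0.278, 1.61 ± 0.288 and 1.38 ± 0.298, edgeR, adjusted p = 5.11e-05, 2.62e-05 and 0.000244) and was at 1390 CPM at 21D 0 mg/kg. Slc46a1, a folate and heme transporter, rose from 8.06 to 16.2 CPM at 7D 0 mg/kg (1.01 ± 0.142, adjusted p = 9.25e-07). Hmox2, the constitutive heme oxygenase, fell from 63.3 to 45.2 CPM (-0.49 ± 0.0947, adjusted p = 7.08e-05), in contrast to the rise of the inducible Hmox1.

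Of the later steps and of hemoglobin clearance, some genes were singled out after their values were seen. Blvra, which reduces the biliverdin made by Hmox1, was at 0.61, 0.63 and 0.86 at 7D (edgeR, adjusted p = 0.017, 0.0172 and 0.0032) and 0.31 at 21D 0 mg/kg (adjusted p = 0.21). Cd163, the macrophage receptor for hemoglobin bound to haptoglobin, was at 63.4 ± 44.4 CPM in controls and 112 ± 63.8, 102 ± 43.4 and 163 ± 65.3 CPM at 7D, and was called at 6 mg/kg alone (1.36, adjusted p = 0.0432). Hp, haptoglobin itself, was at 1.79, 0.86 and 1.53 at 7D (adjusted p = 0.00348, 0.141 and 0.0173). Both were lower at 21D than at 7D in some doses, with Cd163 at -1.46, -1.63 and -1.57 (adjusted p = 0.057, 0.0246 and 0.04) and Hp at -2.26, -1.38 and -2.12 (adjusted p = 0.00486, 0.0398 and 0.00414).

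Of 4 storage and delivery genes, 2, 1 and 2 were higher and 1 lower at 7D, and none was higher and 1 lower at 21D. With the muscle covariate 0 were called at 7D at any dose, with library size only 3 were higher and 0 lower at each 7D dose and 3, 3 and 2 were higher and 0 lower at 21D, and without control replicate 4 the calls at 7D 0 mg/kg, those of Ncoa4, Slc25a28 and Slc25a37, were all lost. Ncoa4, the cargo receptor that delivers ferritin for breakdown, was at 0.4 ± 0.129, 0.44 ± 0.135 and 0.71 ± 0.143 at 7D (edgeR, adjusted p = 0.00749, 0.00528 and 0.000111). The mitochondrial iron importers differed, with Slc25a28 at -0.38 ± 0.163 (adjusted p = 0.0386) and Slc25a37 at 0.61 ± 0.24 (adjusted p = 0.0259) at 7D 0 mg/kg. Heph, the membrane ferroxidase related to Cp, was the only tested gene of export and oxidation, and was at 0.48 ± 0.344 (adjusted p = 0.217), 0.84 ± 0.361 (0.0421) and 0.91 ± 0.381 (0.0375) at 7D at 0, 2 and 6 mg/kg. Neither call of Heph was kept without control replicate 4, where the values were 0.62 and 0.7, and with the muscle covariate Heph was at -0.35, -0.82 and -0.73 at 7D and not called. With library size only it was called higher in all 6 comparisons with controls, at 1.04, 1.37 and 1.47 at 7D and 1.18, 0.96 and 1.09 at 21D.

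Of 10 tested regulators, 1 was higher at each dose and time, and 2, 3 and 3 were lower at 7D and 4, 3 and 4 at 21D. With library size only 6, 5 and 6 were higher and 2, 1 and 2 lower at 7D, and 3, 4 and 4 were higher and 1, 2 and 2 lower at 21D. With the muscle covariate and without control replicate 4, 1 was higher at each dose and time. With the covariate 4, 2 and 1 were lower at 7D and 2, 5 and 4 at 21D, and without control replicate 4 the numbers were 3, 4 and 4 at 7D and 6, 5 and 5 at 21D. The higher gene in the fit with TMM was Hif1a, the oxygen-regulated transcription factor subunit, at 84.1 ± 14.7 CPM in controls, 293 ± 37.9 at 7D 0 mg/kg and 211 ± 14.9 at 21D 0 mg/kg (log2 fold change 1.8 ± 0.165 and 1.33 ± 0.161, edgeR, adjusted p = 1.39e-09 and 2.06e-07). Epas1, which encodes HIF-2α, was at -0.68 ± 0.315 (adjusted p = 0.0563) and -1.14 ± 0.313 (adjusted p = 0.00265). Hjv encodes hemojuvelin, a co-receptor for bone morphogenetic proteins made mainly in skeletal muscle and liver, and was at 1290 to 2250 CPM in controls, 3.94 to 44.7 CPM at 7D 0 mg/kg, 0.0368 to 0.164 CPM (1 to 3 counts) at 7D 2 mg/kg and 1.92 to 393 CPM at 21D 0 mg/kg, which followed the muscle share. Nfe2l2 and Bach1, the activator and the repressor of Hmox1, were picked for that role after their values were seen and were not called in any comparison with controls, with Nfe2l2 at 140 ± 8.96 CPM in controls and 138 ± 14.8 CPM at 7D 0 mg/kg, and Bach1 at 14.5 ± 8.02 and 15.4 ± 2.03 CPM.

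Between the times, 1, 2 and 1 of the 47 other genes were higher at 21D than at 7D at 0, 2 and 6 mg/kg and 6, 9 and 8 were lower, where the whole table had 2.88%, 7.09% and 8.54% higher and 2.47%, 5.98% and 4.55% lower. Of the lower genes, 4, 6 and 4 belonged to iron uptake, where the largest fall named above was that of Lcn2. In heme synthesis 1, 1 and 0 genes were higher and none was lower. Between doses only Hjv was called, across the doses at 7D (edgeR, adjusted p = 0.00214) and between 2 and 0 mg/kg at 7D (adjusted p = 0.00766), the groups that also differed in muscle share. None of the 47 had a called difference in dose effect between the times.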

How the data were processed

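RNA of 30 rat plantaris tendons was sequenced by the authors as 50-base single-end reads, trimmed with fastp and aligned with STAR to the rn6 genome. The authors deposited raw counts of reads in exons per gene (Ensembl release 95), with each gene's span in bases as a further column. A deposited table of their own edgeR comparisons (fold changes, mean levels and p-values) was not used. The study removed 4 samples on read quality. The labels give 3 tendons at 7D 6 mg/kg, which disagrees with the study's methods, where 1 of 5 was removed from that group. The labels were followed.

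Genes averaging 3 CPM or more in any group were kept (12558, with 566 removed). Counts were scaled by TMM and fitted with edgeR 4.0.16 in R 4.3.3 (quasi-likelihood, group means, all 30 tendons), with limma 3.58.1 and DESeq2 1.42.0 as alternatives. Other alternatives were the scaling, the filter, the muscle share as a covariate, the samples fitted, a replicate block and leaving out each tendon. Each tendon came from a separate rat. Intervals and floors cover counting error only for counts, and the spread between tendons for fold changes.

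The genes and lists were chosen with earlier results of these data known. Within each pathway group, the genes named were the 3 with the smallest adjusted p over the 6 comparisons with control, besides the most abundant gene of each marker list and the 2 genes whose deviations were most like each of the 5. Others are stated as chosen after their values were seen.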

Additional observations from a re-analysis of the deposited data

Results flagged for a closer look

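In 25 groups of 4 or 5 tendons (the 5 genes in each of the 5 groups of that size), 2 tendons lay far from the others of their group, where chance flags about 1 in 20 groups. Cp was at 109 CPM in 21D 0 mg/kg replicate 2, against 58.8 CPM in the nearest tendon, a gap of 0.937 of the group's range. The same tendon had the highest Slc11a1 of all (151 CPM), the highest macrophage sum (8220 CPM) and a muscle share of 0.0667%, the lowest at 21D, and the part of these in its Cp was not tested. Cybrd1 was at 39.9 CPM in 21D 2 mg/kg replicate 4, against 48.5 CPM in the nearest tendon, a gap of 0.804 of the range.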

How the results depend on the processing

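Of the values of the 5 genes under alternatives other than leaving out a tendon, 767 kept their direction and their side of the threshold, 14 lost a call with their direction kept, 8 gained one, 17 uncalled values changed sign, some of them by far less than their error, and 4 called values changed sign and also lost their call. When each tendon was left out in turn, the numbers were 846, 16, 3, 35 and 0.

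The muscle share as a covariate changed the most. It left 0 of the 5 genes called at 7D 2 mg/kg, 0 at 7D 6 mg/kg and 2 at 21D 6 mg/kg against control, where 4 were called in each, and 0 between the times at 0, 2 and 6 mg/kg, where 1 was. It turned Cp to -0.081 at 7D 2 mg/kg, -0.0864 at 7D 6 mg/kg and 0.166 at 21D against 7D at 2 mg/kg, and Slc11a1 to -0.218 at 7D 6 mg/kg. The share does not overlap between controls and repaired tendons, so that the covariate and the groups cannot be told apart.

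At 21D 2 mg/kg, 5 genes were called against control with library size only and 5 with limma-trend, where 3 were called with TMM and edgeR. Those gained were Cp (0.925 and 0.471) and Cybrd1 (0.822 and 0.75). With library size only the median of all genes against controls was 0.508 to 0.641, where TMM gave 0.00728 to 0.0548. At 7D 0 mg/kg, 7474 of 9892 called genes were higher, against 4493 of 8966 with TMM. The 1 call between the times at 2 mg/kg, that of Cp, became 0 with library size only, 0 with the replicate block, 0 when a fold of at least 1.5 was also required, and 0 when any of the 9 tendons was left out. That at 0 mg/kg was 0 to 1 when 1 tendon was left out. The cause was not tested.

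Replicate numbers were not taken to pair the tendons. Between groups, 32 of 76 same-numbered pairs correlated above 0.1 (median 0.04), and 104 of 307 differently numbered pairs did (median 0). Only 5 of 30 tendons correlated best with their own number. Whether the numbers carry a pairing was not tested further. With the number as a block, Cp was called at 21D 2 mg/kg (0.499, adjusted p = 0.043 in edgeR) and not between the times at 2 mg/kg.

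Over all genes, 7D 6 against 0 mg/kg had 49 calls, and 194 with DESeq2, 585 with the covariate, 94 with only the groups compared, 76 with limma-trend, 19 without the muscle list in library sizes and 0 to 60 when 1 tendon was left out. The 258 genes across doses at 7D became 572 with DESeq2 and 873 with the covariate, and 161 without 7D 2 mg/kg replicate 5. Without that tendon the 296 genes at 7D 2 against 0 mg/kg became 125 and the 1641 between the times at 2 mg/kg 953, and without 7D 0 mg/kg replicate 1 the 296 became 464. With the covariate, 8757 and 8529 genes at 7D 2 and 6 mg/kg against control became 1357 and 1423. The 672 and 1643 genes between the times at 0 and 6 mg/kg became 272 and 274 with the covariate, 1496 at 0 mg/kg with DESeq2, and 203 to 1411 and 795 to 1973 when 1 tendon was left out. The 49 genes whose dose effect differed between the times became 181 with DESeq2, 609 with the covariate, 28 with the replicate block, 31 with only the groups compared, 20 without the muscle list in library sizes, and 16 to 79 when 1 tendon was left out.

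Depth was at least 12405741 counts, and 3 control tendons, 1 of them apart from the others, limit every comparison with them.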
